A study of Homo sapiens with 8 samples.

Results

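Single-exon coding peaks are m6A peaks that lay in coding sequence alone and within 1 uninterrupted stretch of exon. They were taken from the 2 peak lists of the study by a rule that used no measured level. A peak qualified when its feature label named coding sequence and neither the stop codon nor a UTR, and when the blocks of the peak left at most 20 nt of its genomic span uncovered. The rule found 600 of the 15730 peaks in the control list, or 3.81% (95% exact Clopper-Pearson interval 3.52 to 4.13). It found 736 of the 13219 peaks in the DF2 siRNA list, or 5.57% (5.18 to 5.97). The intervals cover counting error only. All 600 and all 736 had no uncovered base, and the nearest coding peak outside the rule, in TOE1, left 79 nt uncovered in both lists.

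The study mapped m6A in U2OS cells, an osteosarcoma cell line, without and with knock-down of YTHDF2 (DF2). RNA of the cytoplasm was broken into fragments of about 100 nt, and fragments carrying m6A were pulled down with an antibody. The labels name 4 groups of 2 libraries: input and m6A pull-down of control cells, and input and m6A pull-down of DF2 siRNA cells, the last pair numbered #1 and #2. They do not say whether these numbers stand for different siRNAs, nor whether libraries came from separate cultures. Each peak list belongs to both pull-down libraries of its condition, so every comparison below sets 1 list against 1 list, no replicate error could be computed and no p-value is given.

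The m6A mark is placed on nascent RNA by the METTL3 and METTL14 methyltransferase complex, and YTHDF2 binds it in the cytoplasm and brings the bound mRNA to the decay machinery. Along mRNA, m6A is known to gather around stop codons, in 3′ UTRs and in unusually long internal exons. Single-exon coding peaks are the peaks in which the last of these settings would be found, away from the stop codon.

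No genome sequence was used, but RefSeq windows around gene starts (GRCh38.p14, 250 bases before to 50 after each start) were searched for such peaks. Members on some chromosomes were left out of this search. The windows covered at least 90 bases of such a peak in 7 genes. GGAC, the core of the best known m6A sequence, was searched in these windows on the strand of the peak. It occurred in the windows of 3 of the 7 genes. The 5 sites are shown because they are what this search found, not for the level of the peaks. Each is 22 bases long, reads 5′ to 3′ on the strand of the transcript, and has GGAC in capitals.
ZBTB12, chr6:31901000-31901021, minus strand: cgctgttagGGACatcgtcaac
ZBTB12, chr6:31900821-31900842, minus strand: ctccagccaGGACcccaaagcc
PCBP1, chr2:70088380-70088401, plus strand: gacctggagGGACcacctctag
PCBP1, chr2:70088410-70088431, plus strand: tcgattcaaGGACaacacacca
TCFL5, chr20:62861218-62861239, minus strand: gggcggcggGGACggagcgagg

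The ZBTB12 sites lay in the 300 bases shared with the window of C2, where GGAC occurred 2 times on the peak's strand and 1 time on the other. GGAC is common: 66.3% of all 35116 RefSeq windows of this length held it on their own strand. ZBTB12, a zinc finger gene, had a peak of 800 nt with a fold enrichment of 58.7 in the control list. Its DF2 siRNA peak was 600 nt wide with a fold enrichment of 49.7 and held only the second of the 2 sites. In PCBP1, an RNA-binding protein of the poly(C) family, 205 bases could be read with 2 copies on the peak's strand and 0 on the other, and 51.9% of windows cut to that length held at least 1. The PCBP1 peak of the DF2 siRNA list (400 nt, fold enrichment 20.3) lay inside a control peak of 600 nt that also touched the stop codon (25.4). TCFL5, a basic helix-loop-helix factor, had 1 copy on each strand in 179 bases, against 47.7% of windows of that length with a copy. Its 200 nt peak was in the DF2 siRNA list only (fold enrichment 7.74). The windows of TRMT44, CORO6 and CNNM2 held no GGAC on either strand, and that of PER3 held 1 copy on the opposite strand only. A match is a description and does not place a methylated base.

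Single-exon coding peaks had a median width of 600 nt in both lists. The middle 50% spanned 400 to 1000 nt in the control list and 400 to 800 nt in the DF2 siRNA list. Widths ran from 157 nt in control and 200 nt in DF2 siRNA to 7000 nt in both, and 98.2% and 99.3% were multiples of 200 nt, the bin of the deposited lists. At least 1000 nt wide were 175 control peaks (29.2%) and 177 DF2 siRNA peaks (24.0%). When touching single-exon peaks of both lists were joined, 90.8% of the control and 92.3% of the DF2 siRNA members lay in an uninterrupted stretch of at least 400 nt, and 36.8% and 38.9% in one of at least 1000 nt. These stretches are lower bounds, since exon lengths were not analysed here, and 51 and 56 members lay in a stretch of 200 nt or less for which the data do not show a long exon.

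The deposited fold enrichment is the authors' value per peak, and the sources used here do not say what it is relative to. It is given to describe and rank peaks within a list. Its median was 18.6 for control members and 15.1 for DF2 siRNA members, with the median member at percentile 45.8 and 42.8 of its own list. Coding peaks that cross an exon junction (613 control and 536 DF2 siRNA peaks) had higher medians of 28.4 and 23.3. The deposited score, a whole number of unstated meaning, had medians of 113.5 and 63 for the members and of 318 and 133 for the junction-crossing peaks.

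Along the gene, single-exon coding peaks sat further 3′ than junction-crossing coding peaks and further 5′ than single-exon stop codon peaks. The gene name of 589 control and 722 DF2 siRNA members matched a RefSeq gene. Their median position was 69.9% and 69.1% of the gene span from its 5′ end, introns included, against 60.8% and 62.1% for junction-crossing peaks and 90.7% and 90.9% for single-exon stop codon peaks. The final 3′ part of the gene, beyond its middle part when cut into 3 equal parts, held 53.1% and 53.7% of the members. Genes with a span of at most 10000 bp supplied 11.4% of control and 8.45% of DF2 siRNA members and 3.18% and 5.14% of junction-crossing peaks.

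The peaks fell in 468 genes in the control list and 587 in the DF2 siRNA list, which is 4.69% of the 9971 and 6.86% of the 8556 genes with any peak. Both lists held such a peak in 288 genes, the control list alone in 180 and the DF2 siRNA list alone in 299. The control list also had some other kind of peak in 281 of those 299, and the DF2 siRNA list had one in 127 of the 180. Genes with no peak at all in the other list numbered 53 of 468 (11.3%) for control and 18 of 587 (3.07%) for DF2 siRNA, where the background over all peak-bearing genes was 20.3% and 7.08%. A stop codon peak accompanied the coding peak in 58.3% of control member genes and 49.2% of DF2 siRNA member genes, against 58.0% and 59.2% of all genes with a peak. Genes with a junction-crossing coding peak had one in 49.1% and 46.7%.

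YTHDF2 itself was no member. Its control peak spanned 5′ UTR to 3′ UTR (chr1:28740371-28769316, 2000 nt of exon, fold enrichment 124, score 4226), and its DF2 siRNA peak covered coding sequence and stop codon (chr1:28742575-28743974, 1400 nt, 52.3, score 185). These values are not RNA levels, so they do not check the knock-down. Of 15 osteoblast and mesenchymal marker genes 5 had a peak of any kind in each list, and of 18 markers of other cell types 6 had one in control and 4 in DF2 siRNA. None of the 33 had a single-exon coding peak, so the peaks described here cannot speak to the cell type.

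Whether a site was called in both conditions was asked by overlap, with at least 1 shared exonic base on the same strand. Of the 600 control members, 425 (70.8%, 67.0 to 74.4) shared bases with a DF2 siRNA peak of any class, close to the 71.9% of all control peaks. Of the 736 DF2 siRNA members, 661 (89.8%, 87.4 to 91.9) were overlapped by a control peak, beside a background of 87.5%. The share for junction-crossing coding peaks was 80.6% in control (77.2 to 83.6, n = 613), an interval above that of the control members. This difference of −9.75 percentage points for the control members was not present in the upper 50% of both lists by fold enrichment, where it was 0.37 points. In the DF2 siRNA list the junction-crossing share was 87.9% (84.8 to 90.5, n = 536), an interval that shares values with the members' own. This difference of 1.94 points turned to −14.7 with a reciprocal overlap of 50% and to −21.7 where only peaks of the same class counted. It was −4.06 in the upper 50% by fold enrichment and −3.53 with an FDR 100 times smaller. With both lists cut to peaks of at most 400 nt, which also removes wider partners, it was −18.0. With all partners kept, DF2 siRNA members of at most 200 nt were overlapped in 54.4% and junction-crossing peaks of that width in 43.8%. From there up to 400 nt the shares were 87.0% and 75%, so the members stood higher. Over all widths, single-exon stop codon peaks stood at 81.3% in control (n = 2940) and 91.8% in DF2 siRNA (n = 2894). These differences were set side by side and not tested, since peaks of 1 list are not replicates.

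Of the 175 control members without a partner, 85 were in the lowest 20% of the list by score and 67 in the next 20%. Of the 4423 control peaks of any class without one, 2313 and 1125 were. At most 400 nt wide were 102 of the 175. Of the 4423, 1212 were at most 200 nt wide and a further 1662 at most 400 nt. Narrow peaks made up a smaller share of the 175 than of the 4423, and these low scores a larger one. Of the control members of at most 200 nt, 28.8% (17 of 59) were overlapped, and of those over 1000 nt, 87.2% (102 of 117, interval 79.7 to 92.6), beside 36.5% and 95.5% over all control peaks of these widths. Junction-crossing control peaks over 1000 nt were overlapped in 97.9% (137 of 140, 93.9 to 99.6). By score, the control members in the lowest 20% of the list were overlapped in 29.8% (36 of 121) and those in the highest 20% in all 103 of 103 (interval from 96.5). Over all control peaks, these shares were 26.5% and 97.1%. DF2 siRNA members were overlapped in 54.4% (37 of 68) at 200 nt or less and in 106 of 106 above 1000 nt, beside 58.2% and 99.4% over all DF2 siRNA peaks. The 175 control members with no partner had a median width of 400 nt, a median fold enrichment of 9.62 and a median score of 26.

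**Figure D1:**
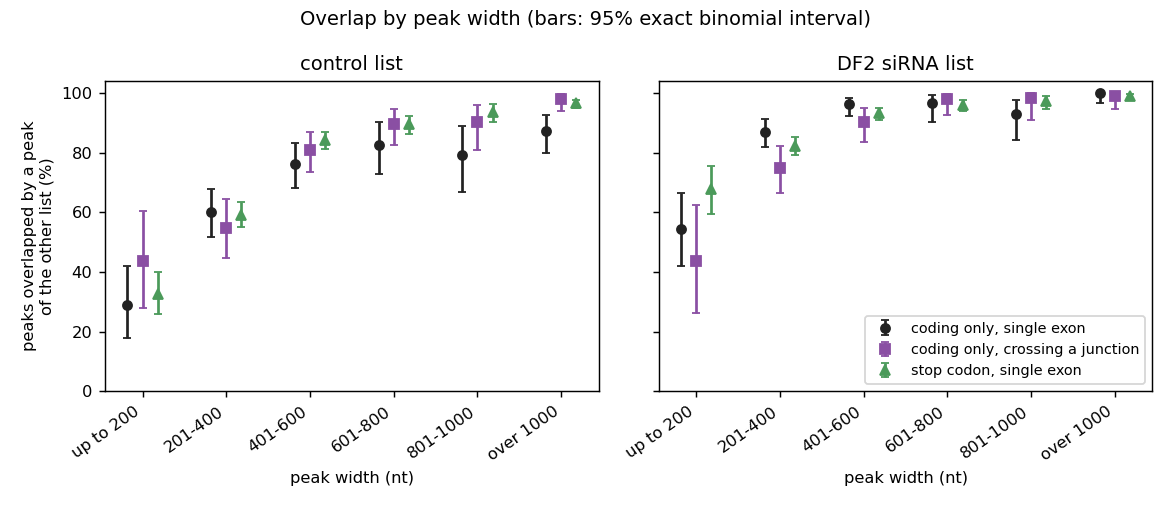
Share of peaks overlapped by a peak of the other list (y axis, %) by peak width in nt (x axis), in the control list (left) and the DF2 siRNA list (right), for single-exon coding peaks, junction-crossing coding peaks and single-exon stop codon peaks. Bars are 95% exact binomial intervals. The members stand at 28.8% in the narrowest and 87.2% in the widest bin in control and at 54.4% and 100% in DF2 siRNA, with a dip in the bin that ends at 1000 nt (79.3% and 93.0%).

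The partner in the other list was often not of the same kind, and this differed by direction. Of the 425 control members with a partner, 324 (76.2%) had a single-exon coding peak as the partner with the most shared bases. Of the 661 DF2 siRNA members with a partner, 338 (51.1%, 47.3 to 55.0) did. The corresponding share for junction-crossing coding peaks of the DF2 siRNA list was 76.2% (72.1 to 80.0), and for single-exon stop codon peaks it was 75% (73.3 to 76.6). The other 323 DF2 siRNA members (48.9% of those with a partner) lay on a control peak of another class, 157 of them on one that touched the stop codon, 111 on a junction-crossing coding peak and 43 on one that reached the 5′ UTR. Of the 323, 234 were wholly inside the control peak.

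DF2 siRNA members tended to be the narrower of the 2 peaks. They were narrower than their control partner in 437 of 661 cases, of equal width in 161 and wider in 63. This was not counted for other classes or for all peaks, so it is not shown to be particular to the members. The rule leaves out peaks that reach a junction, stop codon or UTR, and 323 of the 661 partners were of another class. Its part in the widths was not tested. Control members were narrower than their DF2 siRNA partner in 164 of 425, equal in 155 and wider in 106. Where the control partner touched a stop codon, the 157 DF2 siRNA members had a median width of 600 nt and their partners one of 1800 nt. Peaks with the same start and end in both lists had a score higher in control in 137 of 148 cases, with a median ratio of control to DF2 siRNA of 2.22 (2.35 over the 4643 such pairs of all classes). The depth of the libraries is unknown, and its part in the width and class of the DF2 siRNA peaks was not tested.

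**Figure D2:**
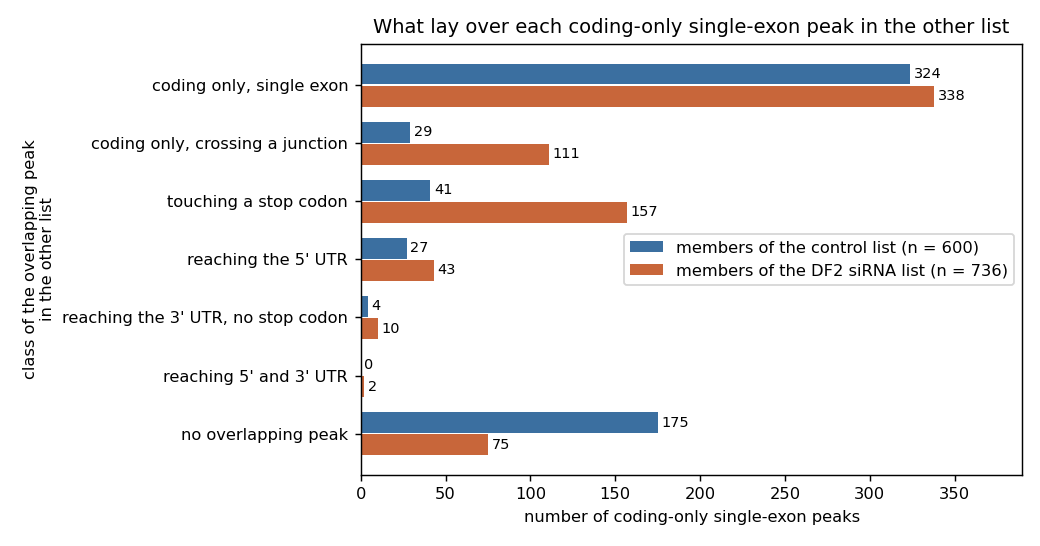
Number of single-exon coding peaks (x axis) by the class of the peak with the most shared bases in the other list (y axis), for the 600 control members and the 736 DF2 siRNA members. Stop codon peaks overlay 157 DF2 siRNA members and 41 control members, while 175 control and 75 DF2 siRNA members had no partner.

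The 148 identical pairs allow a look at the same bases in both lists. Their median fold enrichment was 27.3 in control and 23 in DF2 siRNA, the median ratio was 1.11, and control was higher in 88 pairs (59.5%, against 62.3% of the identical pairs of all classes). The values come from separate calls of the 2 lists and were set side by side without a test, and they spread to both sides. The widest gap was in EPPK1, the gene of the repetitive cytolinker epiplakin, at chr8:143865126-143865525, with 29.1 in control and 276 in DF2 siRNA. A second EPPK1 pair, at chr8:143858726-143859525, stood at 135 and 312, the highest of all DF2 siRNA members. The plakin repeats of EPPK1 are nearly identical to one another, so the placement of reads among them is uncertain. Other pairs higher in the DF2 siRNA list were in KMT2B, a histone H3 lysine methyltransferase (38.1 and 92.5), KIF26A, a kinesin family member (58.4 and 121), TNS2, a focal adhesion protein (58.8 and 109), and KDM6B, a histone H3 demethylase (84.0 and 156). In the other direction lay ADAMTS15, a matrix protease (19.7 and 5.21), WNK4, a kinase of renal salt handling (24.4 and 6.49), APOBR, an apolipoprotein receptor (44.4 and 13.9), and DST, which encodes the cytolinker dystonin (29.8 and 9.95). Apart from EPPK1, KMT2B, KIF26A, TNS2, KDM6B and DST, these genes were named after their values were seen. The scores of some of them were small: ADAMTS15 had 68 in control and 6 in DF2 siRNA.

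**Figure D3:**
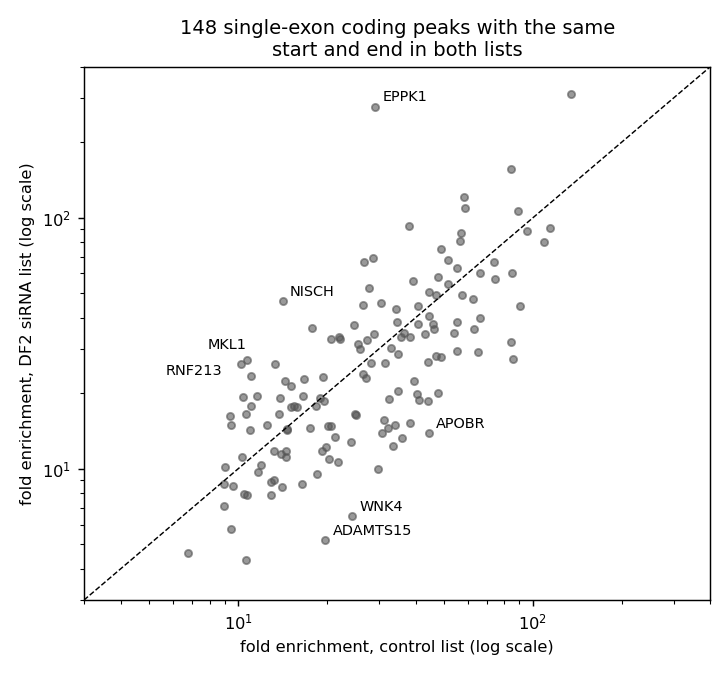
Fold enrichment in the control list (x axis, log scale) and in the DF2 siRNA list (y axis, log scale) for the 148 single-exon coding peaks with the same start and end in both. The dashed line marks equal values, and 88 points lie on the control side of it. The most distant points are labelled.

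The highest fold enrichments of the control list were in SNAPC4, a subunit of the complex that transcribes small nuclear RNA genes (chr9:136377631-136379230, 1600 nt, 214), ARHGAP35, a GTPase-activating protein (162), and PLIN4, a lipid droplet protein (139). The DF2 siRNA peaks over them had 137, 86.5 and 151, so 2 of the 3 were lower there and PLIN4 was not. These genes were picked for high control values, so this gives no direction for the list. After EPPK1 followed PCNXL3 (120 in control and 130 in DF2 siRNA), LRFN1, a synaptic adhesion gene (114 and 91.4), TNRC6B, a partner of Argonaute in silencing (111 and 78.6), BAHD1, a heterochromatin protein (109 and 79.8), ZNF831 (105 and 122) and NCKAP5L (103 and 126). All 10 had a partner. Among the 10 highest of the DF2 siRNA list, ITPKB, an inositol trisphosphate kinase (139), and DSEL, a dermatan sulfate epimerase gene (96.9), lay on control peaks that touched the stop codon, with 138 and 87.1. PPRC1, a PGC-1-related coactivator, had the same 1800 nt in both lists (88.8 for control, 106 for DF2 siRNA).

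The widest member of both lists was in AHNAK, which encodes a giant scaffold protein from 1 very large exon: 7000 nt at chr11:62522920-62529919, with the same ends in both lists and a fold enrichment of 62.6 for control against 47.6 for DF2 siRNA. Its relative AHNAK2 had 5400 nt in control, inside a DF2 siRNA peak of 13200 nt that reached the 5′ UTR. EPPK1 had 4600 nt inside a DF2 siRNA peak of 6800 nt. HELZ2, a nuclear helicase coactivator, had 3600 nt in control. CRYBG3 had 3200 nt in control, and its DF2 siRNA partner was 1200 nt wide. The widest DF2 siRNA members after AHNAK were ZNF831 (3200 nt, over a control peak of 2000 nt), SON, a nuclear speckle protein (2600 nt inside a control peak of 5600 nt), PHRF1 (2600 nt over 1400 nt), ALMS1, a centrosome protein (2400 nt inside 3200 nt), and BOD1L1, a replication fork factor (2400 nt over part of 4200 nt).

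More than 1 such peak occurred in 76 genes of the control list and 100 of the DF2 siRNA list. MUC16, which encodes the large membrane mucin CA-125, had the most in both. Its 17 control peaks covered 18800 of the 45984 bp from the first to the last (chr19:8934959-8980942, 40.9%), with widths of 200 to 2800 nt and fold enrichments of 8.43 to 93.4. Its 11 DF2 siRNA peaks covered 7000 bp (15.4% of 45584 bp) and had 5.69 to 12.8. A DF2 siRNA peak overlapped 7 of the 17 control peaks, and a control peak overlapped 10 of the 11 DF2 siRNA peaks. The most enriched MUC16 peak of the control list without a partner was 1600 nt wide (chr19:8957374-8958973, fold enrichment 29.9). DST had 7 control and 2 DF2 siRNA peaks, EPPK1 6 and 4, and AHNAK 4 and 3. MKI67, the gene of the proliferation antigen Ki-67, ran the other way with 2 and 5. Its 2 control peaks were 2000 and 2400 nt wide. Under the second of them lay 2 DF2 siRNA peaks of 1000 and 400 nt, and 2 further DF2 siRNA peaks lay on junction-crossing control peaks. MAP1A, which encodes a microtubule-associated protein, had 4 and 5. A count of peaks per gene is not a level of m6A.

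**Figure D4:**
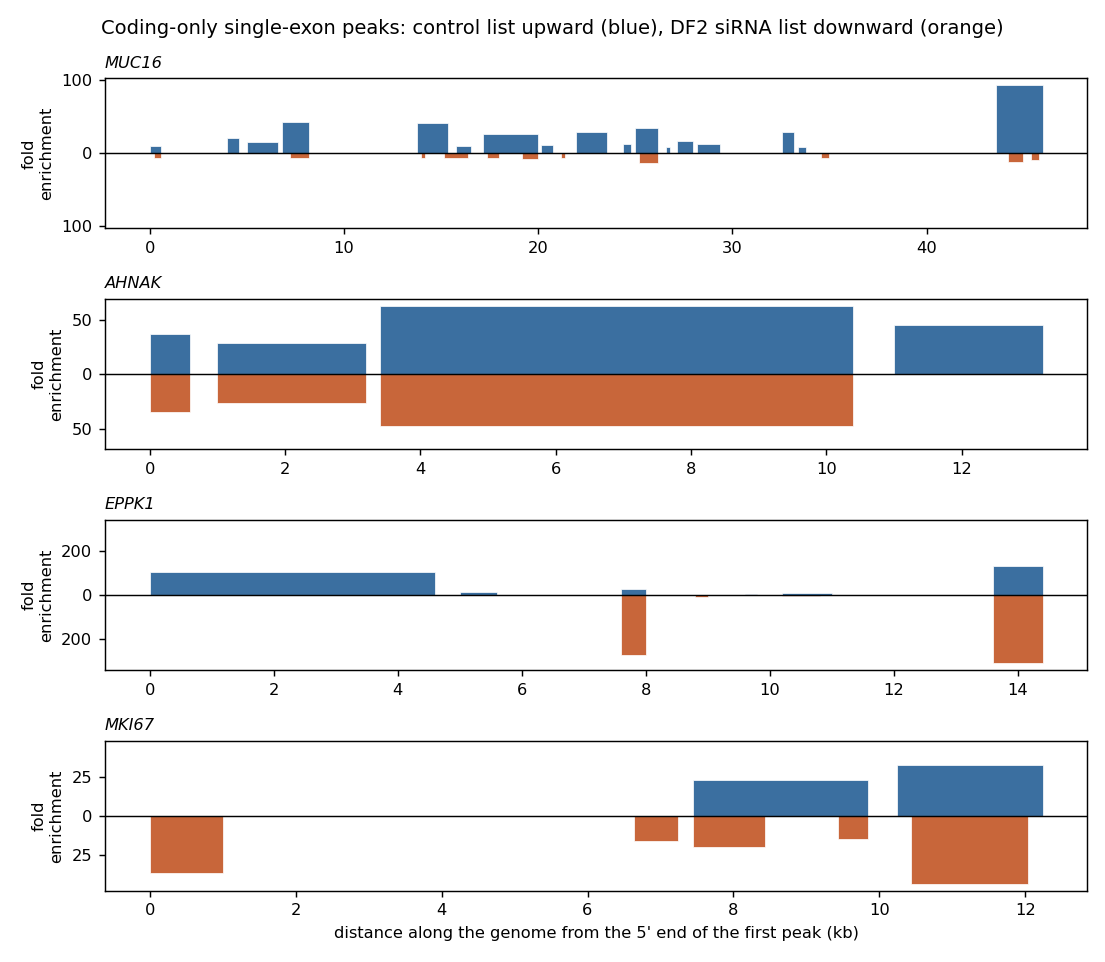
Single-exon coding peaks of 4 genes, drawn by distance in kb along the genome from the 5′ end of the first peak (x axis) with their fold enrichment as height (y axis), control upward and DF2 siRNA downward. MUC16 has 17 control and 11 DF2 siRNA peaks with lower values in DF2 siRNA, AHNAK near equal ones, and EPPK1 higher ones in DF2 siRNA where both lists have a peak of the same ends.

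Groups of genes were described by how many of their peak-bearing genes held a single-exon coding peak, beside 4.69% in control and 6.86% in DF2 siRNA over all genes with a peak. No set test was run, and the groups were drawn up with earlier results of these data known. A gene with many peaks has more chances to hold such a peak, and the shares were not matched for this. In the control list MUC16 had 18 peaks of any class and DST 14. The giant cytoskeletal and membrane scaffold genes held one in 17 of 29 genes in control and 15 of 29 in DF2 siRNA, with 12 genes in common. A DF2 siRNA peak overlapped 34 of the 60 control peaks of this group, where the background was 71.9%. MUC16 alone supplied 17 of the 60, of which 7 were overlapped, and DST supplied 7, of which 3 were. Peaks of 1 gene are not independent, so this share rests to a large part on few genes. A control peak overlapped 35 of its 42 DF2 siRNA peaks, where the background was 87.5%. In AHNAK, PLEC and SVIL, identical or nested peaks stood in both lists. PLEC, the gene of plectin, had identical peaks with 26.7 in control and 66.7 in DF2 siRNA and a further 1000 nt peak in the DF2 siRNA list alone (22.2). NES, which encodes the intermediate filament nestin, had 2 peaks in the DF2 siRNA list alone (23.7 and 9.57), and EVPL, the gene of envoplakin, had 1 (21.3) beside an identical pair (15.5 and 17.8). The control list alone held all 4 peaks of AKAP6 (6.44 to 10.8) and both of MACF1 (7.31 and 10.9), all of them with scores of at most 14.

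C2H2 zinc finger genes, transcription factors that mostly carry their fingers in 1 long last coding exon, were the group with the most members. A single-exon coding peak was present in 34 of 396 genes (8.59%) in control and in 57 of 372 (15.3%) in DF2 siRNA, with 20 genes in both, 14 in control alone and 37 in DF2 siRNA alone. Of the 67 DF2 siRNA peaks of this group, 64 were overlapped by a control peak (background 87.5%): 35 lay on a control peak that touched the stop codon and 22 on a single-exon coding peak. The 35 had a median width of 400 nt and their control partners one of 2000 nt, with median fold enrichments of 10.2 and 48.4, and 31 were wholly inside. Of the 37 genes in DF2 siRNA alone, 36 had a control peak of another class over bases of their peak. ZNF831 (105 in control and 122 in DF2 siRNA), ZNF574 (60.9 and 45.9) and ZNF852 (53.2 and 23.5) led the peaks found in both. Of the 42 control peaks of this group, 27 were overlapped by a DF2 siRNA peak (background 71.9%). Control peaks without a DF2 siRNA partner were those of ZNF107 (26.2) and ZNF644 (23.1), with 13 further peaks. In the DF2 siRNA list 3 had none, among them ZNF771 (9.80) and a 200 nt peak of ZNF629 (9.26).

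Zinc finger genes also share related sequence with their paralogs, so reads may be split between them. BTB zinc finger genes, a family of repressors, held a member in 5 of 41 genes in control and 7 of 42 in DF2 siRNA. ZBTB12, shown above with its sequence, was in both lists. Of the 9 DF2 siRNA peaks in this family 5 lay on control stop codon peaks, and the only one without a partner was a 200 nt peak in ZBTB3 (6.54). ZBTB4 (53.8) and ZBTB7A (23.7) were members in control alone, and their DF2 siRNA partners crossed a junction or reached the 5′ UTR (87.2 and 43.5).

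Chromatin regulators held a single-exon coding peak in 14 of 65 genes in control and 19 of 64 in DF2 siRNA, with 12 in both, 2 in control alone and 7 in DF2 siRNA alone. All 26 DF2 siRNA peaks had a control partner, and 16 of the 21 control peaks had a DF2 siRNA one, where the background over all peaks was 87.5% and 71.9%. After KDM6B, the histone methyltransferase SETD2 had 1400 nt and 70.1 in control and 600 nt and 24.1 in DF2 siRNA. KMT2D, a methyltransferase of enhancers, had 4 control peaks with 19.2 to 68.6. Its 1400 nt pair stood at 56.8 in control and 87.0 in DF2 siRNA and its 600 nt pair at 55.1 and 29.5, so pairs within 1 gene went opposite ways. KMT2A had a 600 nt control peak without partner (11.2), as had JMJD1C (11.3), a putative demethylase. The large exon of KMT2A carried 2800 nt in control (52.9) and 1800 and 400 nt in DF2 siRNA (25.2 and 11.3).

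DNA repair genes held one in 8 of 31 genes in control and 15 of 30 in DF2 siRNA, with 7 in both, 1 in control alone and 8 in DF2 siRNA alone. Of the 22 DF2 siRNA peaks 21 had a control partner, beside the background of 87.5%. ETAA1, an activator of the checkpoint kinase ATR, had 89.2 in control over 1000 nt and 12.7 in DF2 siRNA over 600 nt. POLQ, a polymerase of end joining, had 49.3 over 2600 nt and 8.56 over 400 nt, and RIF1, a repair pathway choice factor, had an identical 600 nt pair with 41.2 and 18.9. ETAA1, POLQ and RIF1 were picked for high control values, so their lower DF2 siRNA values give no direction for the group. FANCM, a Fanconi anaemia helicase, had a 1400 nt control peak without partner (15.5). TONSL, a replication repair factor, had a 600 nt DF2 siRNA peak without partner (19.2).

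Mitosis, kinetochore and centrosome genes held one in 9 of 39 genes in control and 16 of 37 in DF2 siRNA, 8 of them in both. ASPM, a spindle pole protein, had 81.7 in control over 800 nt and 16.1 in DF2 siRNA over 600 nt. CEP170 (61.5 and 27.5) and AKAP9 (44.2 and 26.7), both centrosome proteins, came next by control value. ASPM, CEP170 and AKAP9 were picked for high control values, so their lower DF2 siRNA values give no direction for the group. CEP350, another centrosome protein, had a 600 nt control peak without partner (23.7), as had the kinetochore scaffold CASC5 with 1200 nt (15.2). INCENP, the scaffold of Aurora B, had a DF2 siRNA peak without partner (11.0).

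**Figure D5:**
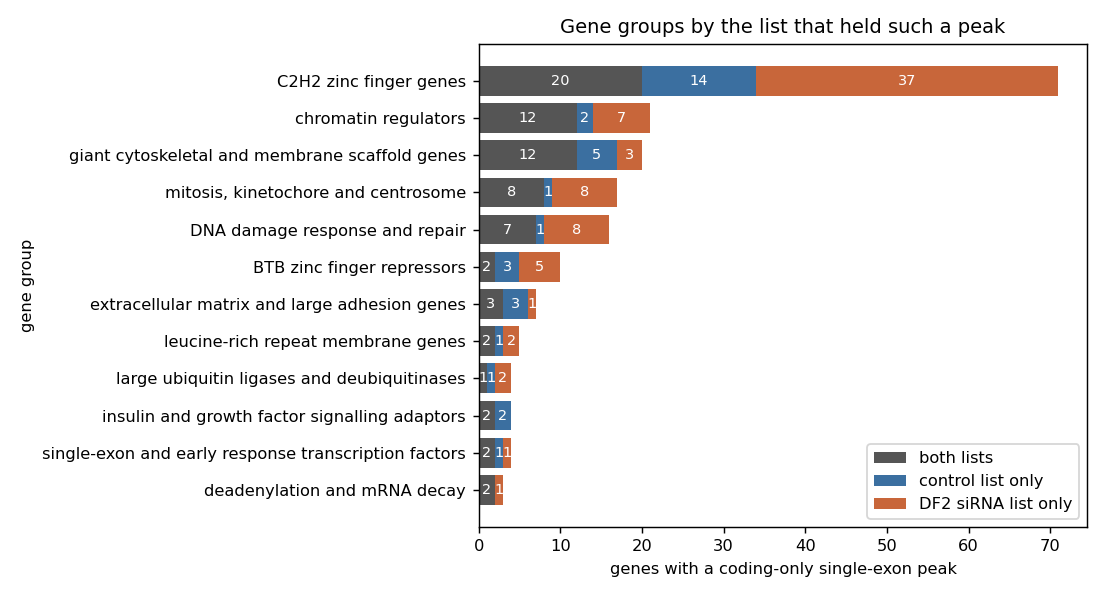
Number of genes with a single-exon coding peak (x axis) for gene groups with at least 3 such genes (y axis), split by the list that held one. The zinc finger group has 20 genes in both lists, 14 in control alone and 37 in DF2 siRNA alone, while the giant scaffold group has 12, 5 and 3.

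Among m6A writers, erasers and readers, 2 of 19 peak-bearing genes held a single-exon coding peak in each list, and they were the same 2. ZC3H13, a subunit of the methyltransferase complex, had a 400 nt pair with 40.6 in control and 19.9 in DF2 siRNA and a second peak with 33.1 and 11.6. YTHDC1, the nuclear m6A reader, had a 200 nt pair with 9.03 and 10.2. Of the mRNA decay genes 2 of 23 did in control (TNRC6B and TNRC6C) and 3 of 22 in DF2 siRNA, where SMG6, the endonuclease of nonsense-mediated decay, joined them. TNRC6C had an identical 1200 nt pair (44.0 and 18.6).

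Early response and single-exon transcription factors held one in 3 of 33 genes in each list. EGR1 had a 600 nt pair with 26.6 in control and 45.1 in DF2 siRNA, KLF10 a 400 nt pair with 10.3 and 11.1, and FOXC2 a control peak (57.8) inside a DF2 siRNA stop codon peak (51.3). Of the growth factor adaptors 4 of 24 did in control and 2 of 25 in DF2 siRNA. The 1200 nt pair of IRS2, an insulin receptor substrate, stood at 48.9 and 74.9. The IRS1 peak (28.6) lay inside a DF2 siRNA peak that reached the 5′ UTR (56.5), and that of FRS3 (18.9) inside one that touched the stop codon (17.9).

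Extracellular matrix and large adhesion genes had 6 of 23 genes in control and 4 of 23 in DF2 siRNA. The cadherin FAT1 had 54.2 in control over 1000 nt and 20.5 in DF2 siRNA over 800 nt. Its relative FAT4 had 53.3 and 14.9 at 1 site and 2 control peaks without partner (17.4 and 15.8). CELSR3 had 50.2 and 23.7, and COL18A1 a control peak without partner (7.29). FAT1, FAT4 and CELSR3 were picked for high control values, so their lower DF2 siRNA values give no direction for the group. Among leucine-rich repeat membrane genes (3 of 26 and 4 of 26), ELFN1 had an identical pair (29.0 and 34.6), FLRT1 a control peak without partner (6.56) and LRRC32 a DF2 siRNA peak without partner (17.4). Large ubiquitin ligases and deubiquitinases had 2 of 26 and 3 of 26. RNF213 had an identical 1000 nt pair (10.2 and 26.1) and 2 DF2 siRNA peaks without partner (12.6 and 10.3), and USP34 had a control peak without one (19.1). The name pattern for ribosomal proteins found 2 of 24 in control and 1 of 16 in DF2 siRNA: RPL7L1, which is a relative of a ribosomal protein (19.2 and 11.8), and RPS24 in control alone (35.9). Of 2 protocadherins PCDH7 held one in DF2 siRNA alone (67.1), on a control stop codon peak.

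The most enriched control members without any partner were KIAA1586 (chr6:57052731-57054530, 1800 nt, 37.2), RPS24, the developmental factor SP8 (34.7), MUC16, the protease-like ADAM21 (27.7), ZNF107, the calcium channel CACNA1H (25.6) and the teneurin TENM3 (25). Their scores were between 37 and 184, in a list whose members reached 6109. In the DF2 siRNA list they were NES, PLEC, EVPL, TONSL, the unnamed locus CTD-2540B15.13 (18), LRRC32, CASKIN2 (17.4) and PPP1R10, a phosphatase regulator (16.8), with scores of 19 to 262. In the control list 140 of the 600 members had a higher fold enrichment than KIAA1586.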

How the data were processed

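Per the submitters' processing notes, HISAT2 was the aligner and hg38 the build; the peak caller, annotation, filters and library depths are not stated in the labels or headers. For each condition the authors deposited 1 peak list that covers both pull-down libraries. Per the file headers, each peak has a fold enrichment (a ratio), a −log10 value and a score. The −log10 column is headed as a p-value for control and as an FDR for DF2 siRNA, with a minimum of 1.30 in both deposited lists. The feature label of a peak is the authors' own. Coordinates are 1-based, in hg38.

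Members were found from the labels and blocks of each list. Block sizes stood in another order than block starts in 1935 control and 1346 DF2 siRNA peaks, 8 and 5 members among them. Members were taken as whole spans, since their sizes add up to the span. Overlap needed 1 shared exonic base on the same strand, and the partner was the peak with the most shared bases. Shares have 95% exact binomial intervals. Read counts were not used here, and intervals describe numbers of peaks. Promoter windows and gene spans came from RefSeq (GRCh38.p14), by symbol or unique older name within 100000 bp. In 4 pairs of control and 9 pairs of DF2 siRNA members, 2 overlapping gene models share bases, and such peaks count for both genes.

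The members and the 17 gene lists were chosen with earlier results of these data known. Genes named are, per list, the 10 with the highest fold enrichment, the 6 widest, the 6 with the most members, the 8 highest without a partner, and from each gene list the 3 highest control members with a partner and up to 2 per direction without one, plus YTHDF2. Of these, 1 gene is not reported here. TOE1, PCBP1, TCFL5, TRMT44, CORO6, CNNM2, PER3, NISCH, MKL1, ADAMTS15, WNK4, APOBR, SVIL, AKAP6, MACF1, SMG6 and PCDH7 were added after their values were seen. Alternatives were other gap limits, stricter limits, equal list lengths, narrow peaks, other overlap rules, and, chosen after seeing the data, whole spans, without MUC16, 1 peak per gene, and without members shared between genes. The overlap count was checked on control members of which a random part had been moved away, and the class rule on a small made-up table. The other steps were not checked in this way. Python 3.11.15, pandas 2.3.3, numpy 2.4.6, scipy 1.17.1 and matplotlib 3.10.9 were used.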

Additional observations from a re-analysis of the deposited data

How the results depend on the processing

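Of 106 alternative values, 74 stayed within the counting interval of the reported value or within 1.5 times a reported count. A gap limit of 100 nt, overlap on either strand, whole spans, and leaving out MUC16 or members shared between genes moved none of them. A gap limit of 0 nt and a limit to chromosomes 1 to 22 and X moved none either, but these settings tested nothing. No coding peak left 1 to 20 nt uncovered in either list. Both settings kept the same 600 of 15730 control and 736 of 13219 DF2 siRNA peaks, with overlap shares of 70.8% and 89.8%. Their unchanged values are among the 74.

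The share of control members overlapped (70.8%) was 74.9% in the upper 50% of the lists by fold enrichment and 81.3% with equal list lengths. It was 24.9% with both lists cut to peaks of at most 400 nt and 57.3% with a reciprocal overlap of 50%. Where only peaks of the same class counted it was 54%, and with 1 peak per gene it was 75%. The share of DF2 siRNA members overlapped (89.8%) was 84.5%, 87.2%, 18.6%, 56.4% and 46.1% under the first 5 of these. Members as a share of all control peaks (3.81%) were 3.39% in the upper 50% and 2.98% with 1 peak per gene. As a share of all DF2 siRNA peaks (5.57%) they were 4.87% with a p-value or FDR 100 times smaller, 4.69% in the upper 50%, 6.01% among peaks of at most 400 nt and 4.44% with 1 peak per gene. The control list's difference in overlap between single-exon and junction-crossing coding peaks (−9.75 points) was −4.68 with the smaller p-value. It was −15.8 with both lists cut to peaks of at most 400 nt, which also removes wider partners. In the upper 50% it was 0.37, a change of sign. The difference of the DF2 siRNA list (1.94) was −3.53 with the smaller FDR, −4.06 in the upper 50% and −14.7 with a reciprocal overlap. It was −21.7 where only the same class counted and −18.0 with both lists cut to peaks of at most 400 nt. Genes in both lists (288) were 183 with the smaller p-value or FDR, 141 in the upper 50% and 67 among narrow peaks. Genes in DF2 siRNA alone (299) were 163, 126 and 199, and those in control alone (180) were 85 in the upper 50%. The stricter limits leave fewer peaks, and the cause of these shifts was not tested.

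No paired analysis was possible because each condition has 1 peak list for both libraries, and for the same reason leaving out 1 library was not an option. Depth is unknown, and a peak missing from a list is not shown to be absent from the RNA.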

Other observations

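Replication-dependent histone genes have no introns, so a coding peak in them has to lie within 1 exon. They were looked at after the values were seen. HIST2H3D, a histone H3 gene, had a 200 nt peak in the control list (fold enrichment 10.1, score 266) inside a 400 nt peak of the DF2 siRNA list (12.7, score 162). HIST1H2AJ (8.05, score 9) and HIST1H4K (5.83, score 7), genes of H2A and H4, had a 200 nt peak in the control list alone. HIST1H2BI, an H2B gene, had one in the DF2 siRNA list alone (11.7), with a score of 444, near the top of the 75 members of that list without a partner. Histone genes occur in near-identical copies, so reads may have been shared between them, and the gene name of such a peak is uncertain.

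Tubulin gene TUBB4B, also named after its values were seen, had an identical 600 nt pair with a score of 4513 in control and 3168 in DF2 siRNA, among the highest scores of the members, at a fold enrichment of 27.8 and 52.7. Of the members, 11 in control and 10 in DF2 siRNA also carried the label of a non-coding RNA.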
